A study of Mus musculus with 3 samples.

Results

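The genes of 10 focal adhesion proteins, parts of the structure through which a cell's integrins grip the matrix, were examined for binding of the forkhead transcription factors Foxc1 and Foxc2 in mouse kidney glomeruli. They are the 4 tensin genes (Tns1, Tns2, Tns3 and Tns4), the talin genes Tln1 and Tln2, and Vcl, Pxn, Ptk2 and Bcar1. The 10 were taken by name out of 21887 protein-coding genes. Each was given every peak whose summit lay inside its RefSeq span or no more than 50 kb beyond either end. That rule gave 18 of the 5213 Foxc1 peaks and 11 of the 2881 Foxc2 peaks.

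The data are chromatin immunoprecipitation with sequencing (ChIP-seq) of glomeruli from C57BL/6 mice of 8 weeks, isolated with magnetic beads. There were 3 libraries: 1 with Foxc1 antibody D8A6 (CST), 1 with Foxc2 antibody AF6989 (R&D Systems), and 1 of input DNA, for which no file was analysed here. The labels give no genotype or treatment for any of them. Whole glomeruli hold podocytes, mesangial cells and endothelium, and a peak does not show in which of these cells a factor was bound. The peak lists hold no RNA levels, so the tissue label was not checked against marker genes. With 1 library per antibody there is no spread between replicates and no test, and every value below describes these 2 lists. Sequencing depth is unknown, the Foxc1 list is the longer, and a gene without a peak is a gene where none was called.

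Talins bind the tails of integrin beta chains, switch integrins on and tie them to actin. Vinculin strengthens that tie, and tensins bind integrin tails and, except for the product of Tns4, actin filaments. Paxillin, focal adhesion kinase and p130Cas relay signals from the adhesion. Podocytes hold to the glomerular basement membrane through such adhesions. Loss of tensin 2 or of podocyte talin 1 is known to cause proteinuria in mice.

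Foxc1 peaks were found at 9 of the 10 genes, all but Tns4, and Foxc2 peaks at 4, namely Tns2, Tns3, Vcl and Bcar1. Of all protein-coding genes, 29.3% had a Foxc1 summit by the same rule and 23.2% a Foxc2 summit. The 10 genes were chosen with earlier results of these data known, so the shares of all genes are given for description only. Both antibodies had peaks at 4 of the 10 genes, against 12.5% of all genes. Tns4 alone had neither, as did 60.1% of all genes. The 10 genes are long, with a median span of 84.2 kb against 17.2 kb for all genes, and long genes collect more summits. Among the 10363 genes with a span between those of the shortest and the longest of the 10 (17.9 and 417 kb), 34.9% had a summit of Foxc1 and 26.7% one of Foxc2. Counting summits inside the gene alone, 6 of the 10 had a Foxc1 summit (9.53% of all genes) and 3 a Foxc2 summit (7.58% of all genes).

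**Figure D1:**
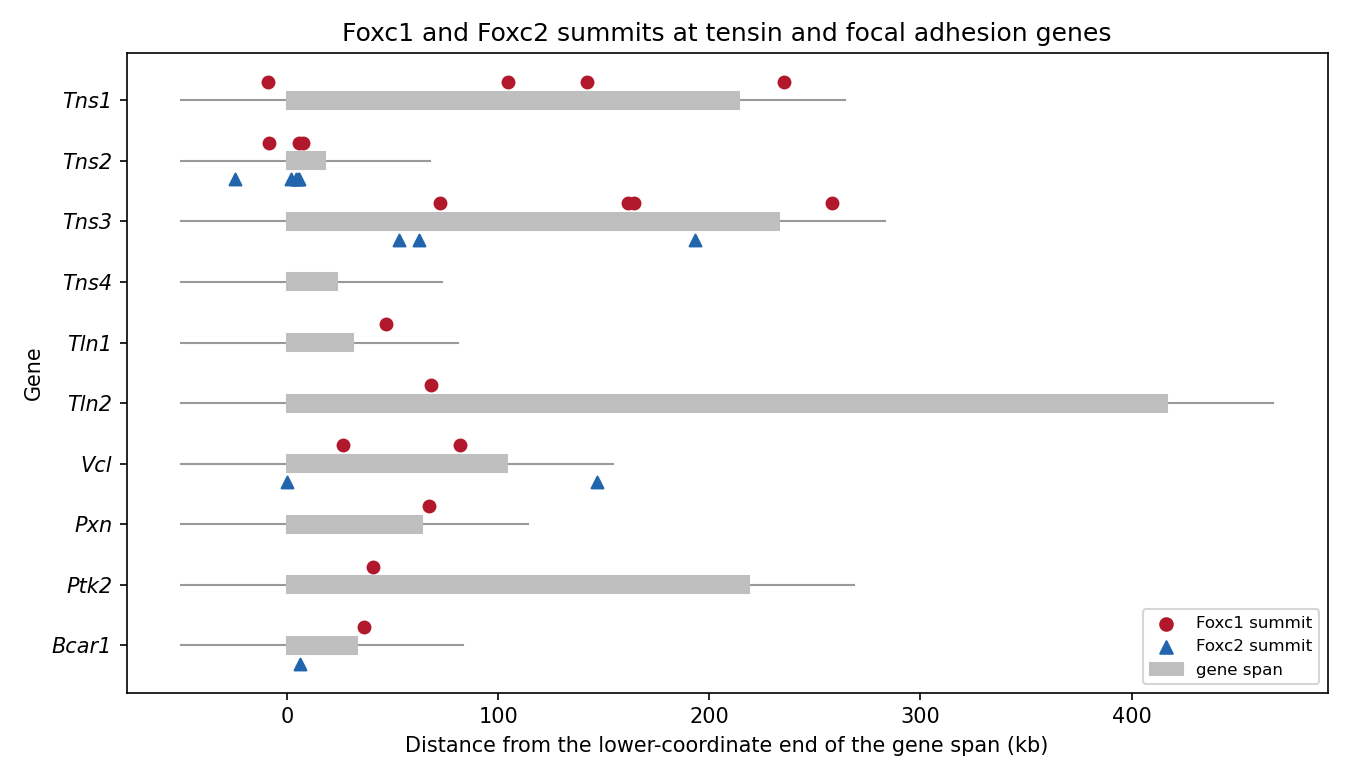
Position of each Foxc1 summit (circles) and Foxc2 summit (triangles) in kb from the lower-coordinate end of each gene span (grey bar), with the 50 kb on either side as a line. Of the 18 Foxc1 summits, 11 were counted for the tensins Tns1, Tns2 and Tns3, some of them in the neighbours Rufy4 and Eif4b. Of the 11 Foxc2 summits, 8 were counted for Tns2 and Tns3, with 1 of them in Eif4b. Tns4 has none, and the windows differ in length.

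Some of these peaks lay on promoters, and the sequences below show which letters were under them. The RefSeq promoter table (GRCm38.p6, the assembly also called mm10) gives 250 bases before and 50 after an annotated start. It holds 7 windows for 6 of the genes, Tns1, Tns2, Tns3, Tln1, Vcl and Bcar1 (which has 2). A Foxc2 summit lay in 2 of the 7, those of Tns2 and Vcl, and in 2.46% of all 32851 windows. A Foxc1 summit lay in none of the 7 and in 0.673% of all windows. Another 3 summits counted for these genes lay in promoter windows of their neighbours Adk, Rgp1 and Rplp0. All 5 windows are printed 5′ to 3′ on the gene's strand (plus for each), with the summit base and 15 bases on either side in capitals.
Tns2, chr15:102102684-102102983, Foxc2 summit 142 bp before the start: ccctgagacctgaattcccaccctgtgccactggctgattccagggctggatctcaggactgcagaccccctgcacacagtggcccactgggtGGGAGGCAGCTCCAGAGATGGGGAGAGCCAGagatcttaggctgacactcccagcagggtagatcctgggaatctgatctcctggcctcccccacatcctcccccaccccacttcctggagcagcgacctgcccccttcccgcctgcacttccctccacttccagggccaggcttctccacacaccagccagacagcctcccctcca
Vcl, chr14:20929148-20929447, Foxc2 summit 160 bp before the start: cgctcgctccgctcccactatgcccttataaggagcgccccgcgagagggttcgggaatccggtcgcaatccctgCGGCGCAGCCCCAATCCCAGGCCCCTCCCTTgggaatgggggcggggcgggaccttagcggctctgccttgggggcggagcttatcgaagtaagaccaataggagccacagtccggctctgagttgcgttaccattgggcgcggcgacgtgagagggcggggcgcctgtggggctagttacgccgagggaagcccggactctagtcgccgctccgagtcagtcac
Adk, chr14:21075902-21076201, Foxc2 summit 98 bp before the start: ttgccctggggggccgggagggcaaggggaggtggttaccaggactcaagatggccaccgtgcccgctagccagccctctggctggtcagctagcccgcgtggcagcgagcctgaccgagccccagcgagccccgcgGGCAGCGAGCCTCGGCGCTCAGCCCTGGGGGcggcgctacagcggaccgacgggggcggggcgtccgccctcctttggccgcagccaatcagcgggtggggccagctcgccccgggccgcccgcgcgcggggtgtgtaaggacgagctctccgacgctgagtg
Rgp1, chr4:43578485-43578784, Foxc1 summit 133 bp before the start: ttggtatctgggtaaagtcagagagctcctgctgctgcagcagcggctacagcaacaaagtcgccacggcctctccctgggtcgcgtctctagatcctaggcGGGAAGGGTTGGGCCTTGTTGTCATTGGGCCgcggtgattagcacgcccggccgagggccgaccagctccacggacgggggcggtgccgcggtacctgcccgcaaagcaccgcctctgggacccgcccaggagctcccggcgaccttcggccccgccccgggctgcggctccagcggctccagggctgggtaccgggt
Rplp0, chr5:115559217-115559516, Foxc1 summit 79 bp before the start: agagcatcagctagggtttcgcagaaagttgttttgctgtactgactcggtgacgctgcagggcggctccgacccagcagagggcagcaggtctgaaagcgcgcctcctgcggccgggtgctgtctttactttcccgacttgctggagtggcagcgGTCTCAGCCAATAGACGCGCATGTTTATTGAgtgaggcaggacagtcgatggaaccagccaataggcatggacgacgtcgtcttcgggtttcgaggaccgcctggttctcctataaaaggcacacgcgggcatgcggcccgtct

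Forkhead factors are known to bind DNA around the letters TAAACA, with GTAAACA as a common longer form. Both were searched on both strands, and every GTAAACA match is also a TAAACA match. Of the 5 windows, the Rplp0 window alone held a match. It reads TGTTTA on the printed strand, at positions 178 to 183 counted from 1 at the 5′ end, 6 bases from the Foxc1 summit at position 172. The longer GTAAACA was in none of the 5. The 7 windows of the genes themselves held no TAAACA (exact 95% interval 0 to 41.0%), beside 13.4% of all windows. So few windows give no ground for a contrast with that share. These 7 windows had a GC content of 57.0 to 75.7%, and the median over all windows was 52.7%. In the whole series, TAAACA lay in 99 of the 221 windows with a Foxc1 summit (44.8%, exact Clopper-Pearson 95% interval 38.1 to 51.6%). It lay in 52 of the 808 windows with a Foxc2 summit (6.44%, interval 4.84 to 8.35%), and their median GC contents were 59.0 and 70.3%. The intervals cover counting error only.

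Tns2 encodes tensin 2 and was the member with the most peaks for its length. Its span of 17.9 kb (chr15:102098475-102116401) and flanks held 3 Foxc1 and 5 Foxc2 peaks, 2 of these 8 inside the neighbour Eif4b. By the 50 kb rule each summit inside Tns2 was counted for 5 protein-coding genes, Tns2 among them, so neighbours share these peaks. Of all protein-coding genes 0.366% had 8 or more peaks of both lists together, and of the 11205 genes with a span no longer than that of Tns2, 0.17% did. The peaks amounted to 6.78 per 100 kb of window, against 0 to 2.10 at the other 9 genes. Inside the gene, 6 summits, 2 of Foxc1 and 4 of Foxc2, lay within 5.57 kb of one another.

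In the Foxc1 list, the strongest peak at Tns2 (chr15:102089601-102090308) had a fold enrichment of 36.9. This fold is the authors' own value, the signal at the summit relative to the surrounding background. It ranked 17 among 5213, with a minus log10 q of 279. Its summit lay 8.49 kb before the lower end of the Tns2 span and 13.0 kb before the start in the promoter table. That place is inside the neighbouring gene Eif4b (chr15:102073773-102097173), which encodes a translation initiation factor, and the closest gene end, 7.19 kb away, belongs to Eif4b. The other Foxc1 peaks were inside Tns2, with a fold of 7.59 at 3.13 kb after the start (rank 967) and of 2.69 at 1.14 kb after it (rank 5185).

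The Foxc2 peaks at Tns2 were of moderate or low height within their list. The one printed above over the promoter (chr15:102102680-102103147) covered all 300 bases of the window and had a fold of 3.44. Others lay 2.45 kb before the start (fold 3.22), 0.82 kb after it (3.78) and 1.29 kb after it (3.95). The fifth, of fold 4.13, lay 28.9 kb before the start and 304 bp from an end of Eif4b. Their ranks ran from 1234 to 2563 among 2881.

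The only place at any of the 10 genes where a Foxc1 peak and a Foxc2 peak overlapped was inside Tns2. There the Foxc1 peak of fold 2.69 shared 62 bases with the Foxc2 peak of fold 3.78, with summits 316 bp apart. The next Foxc2 peak, of fold 3.95, began after a gap of 2 bases, and its summit was 151 bp from the Foxc1 summit. The strong Foxc1 peak in Eif4b had no Foxc2 summit closer than 10.5 kb.

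**Figure D2:**
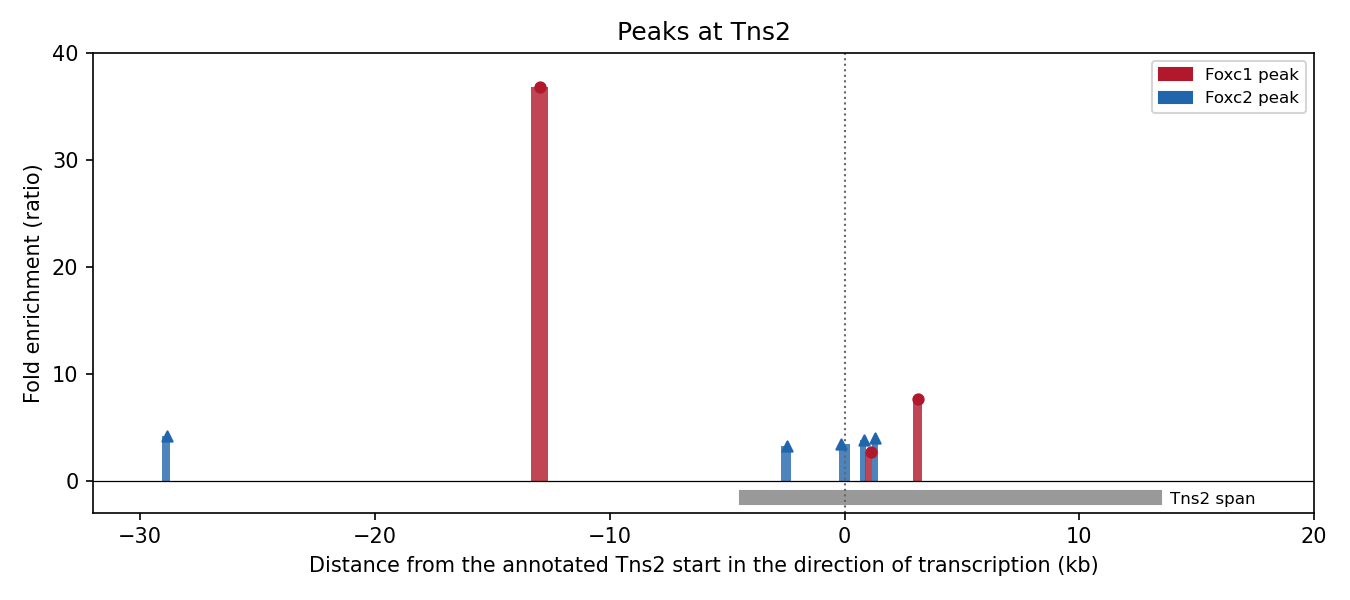
Fold enrichment (vertical axis, ratio to local background) of each peak at Tns2 against distance in kb from the annotated start (dotted line), with bars as wide as the peaks, summits as circles (Foxc1) and triangles (Foxc2), and the Tns2 span in grey. The Foxc1 peak of fold 36.9 stands 13.0 kb before the start, and 4 Foxc2 and 2 Foxc1 summits lie inside the gene. Folds of the 2 lists are not on a common scale.

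Tns1 and Tns3 encode the large tensins that bind actin filaments, and both had 4 Foxc1 peaks, a count reached by 1.14% of all protein-coding genes. At Tns3 (chr11:8431652-8664758) there were also 3 Foxc2 peaks, and 3 or more were found at 2.03% of genes. Tns1 (chr1:73910232-74124548) had no Foxc2 peak, and the nearest Foxc2 summit was 125 kb away, inside Arpc2, which encodes a subunit of the actin-nucleating Arp2/3 complex. Spans of 214 and 233 kb make these genes much longer than Tns2, and their peaks were sparser, at 1.27 and 2.10 per 100 kb of window for both lists together. The shares of 1.14 and 2.03% are over genes of every length, with a median span of 17.2 kb. Shares among genes of like span were not taken.

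At Tns1 the strongest Foxc1 peak had a fold of 10.8 (chr1:74014522-74014904, rank 477) and lay deep in the gene, 110 kb after the annotated start. A peak of fold 4.14 lay 72.4 kb after the start, and one of 5.22 lay 9.06 kb beyond the far end of the gene. The fourth, of fold 3.86, lay 20.9 kb before the start, inside the neighbour Rufy4, and 2.77 kb from an end of it.

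At Tns3 the strongest Foxc1 peak, of fold 9.63 (chr11:8503766-8504184, rank 611), was also deep in the gene, 161 kb after the start. Weaker ones, of fold 4.27 and 4.57, lay 71.2 and 68.5 kb after the start, and one of 3.00 lay 25.2 kb before it. The Foxc2 peaks, of fold 4.81, 4.17 and 3.95, were all inside the gene, at 180, 170 and 39.8 kb after the start. Peaks of the 2 antibodies came no closer to each other than 9.69 kb at Tns3, so the gene carried both without a shared place. No peak at Tns1 or Tns3 lay within 20 kb of the annotated start.

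Tns4 encodes the short tensin that lacks the actin-binding part of the others. It had no peak in its 23.6 kb span (chr11:99065678-99089306) or flanks. The nearest Foxc1 summit was 236 kb away, and the nearest Foxc2 summit 106 kb away, inside the retinoic acid receptor gene Rara.

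The talin genes had 1 Foxc1 peak each and no Foxc2 peak. Tln1 (chr4:43531513-43562583), which encodes the talin of most tissues, had its peak at a fold of 4.78. Its summit lay 16.02 kb before the Tln1 start, and it was the peak on the Rgp1 promoter window printed above. Rgp1 belongs to a membrane trafficking complex, and the summit also fell within the span of Gba2, a glucosylceramidase gene. Tln2 is the longest of the 10 genes at 417 kb (chr9:67217085-67634045). Its peak, of fold 4.27, was intragenic and lay 68.4 kb from the nearer end. The nearest Foxc2 summit to Tln2 was 2184 kb away.

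Vcl, which encodes vinculin (chr14:20929383-21033676), had 2 peaks of each antibody and no overlap between them. Its Foxc2 peak of fold 2.75 (chr14:20929176-20929688) lay on the promoter window printed above and ranked 2803 among 2881, near the bottom of that list. The other, of fold 3.27, lay 42.4 kb beyond the far end, on an annotated start of Adk, the adenosine kinase gene. The Foxc1 peaks were both inside Vcl, with folds of 2.56 and 6.49 at 26.8 and 81.9 kb after the start. The closest Foxc1 and Foxc2 summits were 26.9 kb apart.

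The signalling members had 1 Foxc1 peak each. Pxn, which encodes the scaffold paxillin (chr5:115491970-115555987), had one of fold 7.76, the highest of these 3 (chr5:115559193-115559526, rank 931). It lay 3.40 kb beyond the Pxn span on the promoter of Rplp0, a ribosomal protein gene, with its summit 79 bp before the Rplp0 start and beside the TGTTTA shown above. Ptk2, which encodes focal adhesion kinase (chr15:73205102-73423820), had its Foxc1 peak, at a fold of 7.28, within the gene body and 40.7 kb from its nearer end (chr15:73245548-73245957, rank 1053).

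Bcar1, which encodes the docking protein p130Cas (chr8:111710474-111743849), had a Foxc1 peak of fold 6.01 located 2.92 kb before its start (chr8:111746546-111746963, rank 1576). Of the Foxc1 summits at the 6 genes with a known start, only that of fold 2.69 in Tns2 was closer to one. Bcar1 alone of the 3 also had a Foxc2 peak, of fold 3.95, inside the gene and 15.4 kb after the closer of its annotated starts. The 2 summits were 30.01 kb apart.

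Ranked by height within each list, most peaks at these genes were not among the strongest. The 18 Foxc1 peaks had folds from 2.56 to 36.9 with a median of 5.0, against 4.90 for the whole list (quartiles 4.11 and 6.64), and 9 of the 18 were above the list's median. The 6 above the upper quartile were at Tns2 (2 peaks), Tns1, Tns3, Pxn and Ptk2. The 11 Foxc2 peaks had folds from 2.75 to 4.81 with a median of 3.95, against 3.97 for the list (quartiles 3.57 and 4.65), and 3 of the 11 were above its median. The one above the upper quartile was the peak of fold 4.81 at Tns3, which ranked 606 among 2881. None of them reached a fold of 5.

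**Figure D3:**
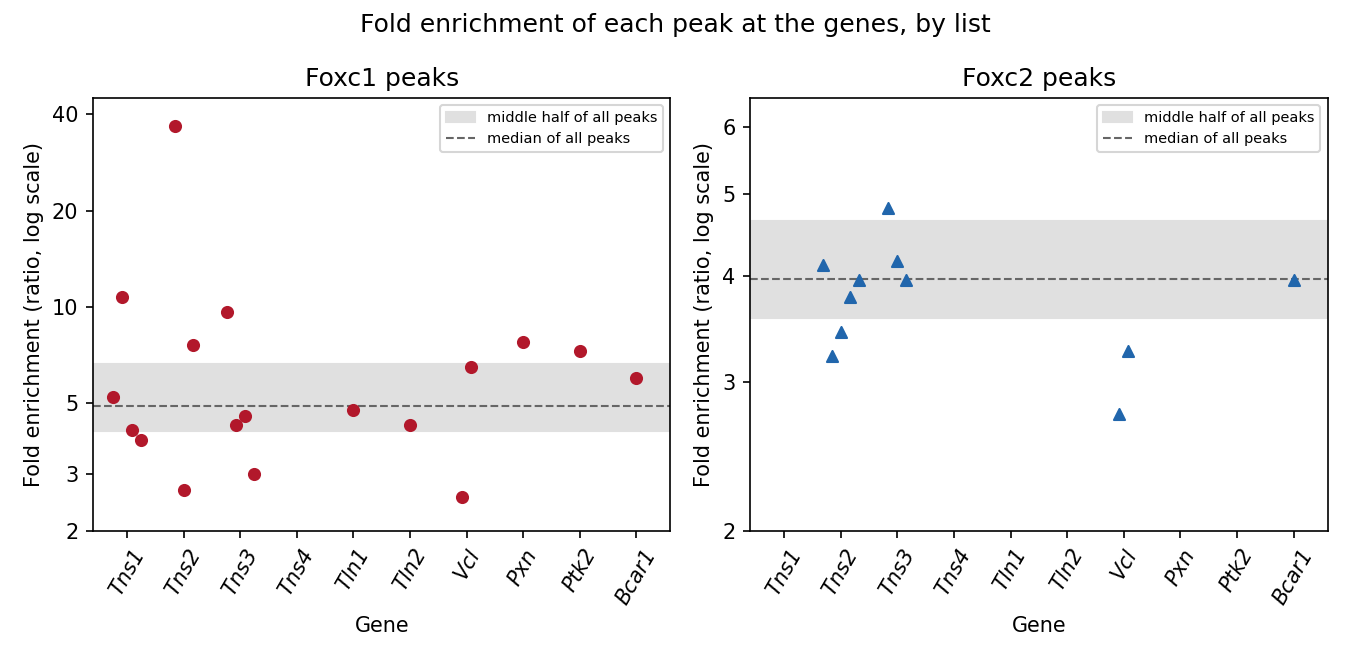
Fold enrichment (log axis, ratio to local background) of every Foxc1 peak (left) and Foxc2 peak (right) at each gene, with the median (dashed) and the quartile range (grey) of the whole list. Foxc1 peaks range from 2.56 to 36.9, highest at Tns2, and Foxc2 peaks from 2.75 to 4.81, highest at Tns3. The panels have different scales and are not to be compared with each other.

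Most summits were inside genes. Inside the span of the gene they were counted for lay 11 of the 18 Foxc1 and 8 of the 11 Foxc2 summits. Inside any protein-coding gene, neighbours included, lay 14 of the 18 (77.8%) and 10 of the 11 (90.9%), where in the whole lists 56.4 and 66.3% did. The 50 kb rule gathers summits near genes, so the shares of the whole lists, which include summits far from any gene, are a description only.

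Within 1 kb of an end of any protein-coding gene span lay 2 of the 18 Foxc1 summits (11.1%), those at Rgp1 and Rplp0, against 10.9% of the list. Of the 11 Foxc2 summits 2 did (18.2%), those at Vcl and Eif4b, against 52.4% of the list. Spans begin at their outermost start, so this count passes over starts inside them. With the starts of the promoter table added, a choice made after seeing the data, 5 of the 11 Foxc2 summits (45.5%) lay within 1 kb of an end or a start. The 3 gained were 2 at Tns2 and the one at Adk, and the share over the list, on chromosomes of that table, was 61.1%. The Foxc1 count stayed at 2 of 18, against 12.5% of the list. List shares here include peaks far from any gene, and 5 of the 11 Foxc2 summits were counted for Tns2 alone. They are a description only. With the known starts of the genes themselves alone, 3 Foxc2 summits lay within 1 kb of one, 2 at Tns2 and 1 at Vcl. No Foxc1 summit at the 6 genes with a known start did. Starts of Tns4, Tln2, Pxn and Ptk2 were not known, so their peaks were not measured against one.

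Peaks of the other antibody overlapped 1 of the 18 Foxc1 peaks (5.56%) and 1 of the 11 Foxc2 peaks (9.09%). Both counts come from the single pair inside Tns2. In the whole lists 8.2 and 14.8% of peaks were overlapped, and so few peaks, several of them from one gene, give no ground for a comparison with the lists.

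Attribution to neighbours bears on several genes. Of the 18 Foxc1 summits, 14 lay inside the member or had its end as the closest gene end, and of the 11 Foxc2 summits 9 did. The exceptions were the Foxc1 peaks in Rufy4, in Eif4b, at Rgp1 and at Rplp0, and the Foxc2 peaks in Eif4b and Adk. Without them Foxc1 peaks were left at 7 of the 10 genes and Foxc2 peaks at 4, and Tln1 and Pxn had none. The share of all genes under this narrower rule was not taken. The 29.3 and 23.2% given earlier belong to the 50 kb rule and are no background for these counts.

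The limit of 50 kb divided no close group of peaks. The farthest summit counted was the Foxc2 summit 42.4 kb from Vcl, and the nearest summit not counted was a Foxc2 summit of fold 2.88 at 76.0 kb from Pxn, beside an end of Rab35.

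Other genes of the focal adhesion were counted by the same rule, as a list of 52 genes of adaptors, kinases, actin linkers and regulators. Foxc1 peaks were found at 30 of them (57.7%) and Foxc2 peaks at 19 (36.5%), 14 had both and 17 neither. The 10 genes described above stood at 9 and 4, and 29.3 and 23.2% of all protein-coding genes, of every length, had a summit. Both sets of genes were chosen with earlier results of these data known, so these counts are descriptive. The median span of the 52 was 66.1 kb, against 17.2 kb for all genes, and long genes collect more summits. Shares among genes matched to the 52 for length were not taken. An overlapping Foxc1 and Foxc2 pair was found at 3 of the 52 and at 1 of the 10. The share of all genes with such a pair was not counted, so these counts have no background.

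Parva, which encodes an integrin-linked kinase partner, had the most peaks of the 52, with 4 of each antibody and folds up to 6.78 and 4.0. Fyn, a Src family kinase that phosphorylates nephrin, had 4 Foxc1 and 3 Foxc2 peaks, all inside the gene, with folds up to 4.75 and 5.16. Dlc1, whose product binds tensins, had 6 Foxc1 peaks with folds up to 4.90 and no Foxc2 peak. Fhl2, an adaptor of integrin tails, likewise had 5 Foxc1 peaks and no Foxc2 peak.

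Nedd9, a close relative of Bcar1, had a strong Foxc1 peak overlapped by Foxc2, unlike Bcar1 itself. That Foxc1 peak (chr13:41352234-41352796) had a fold of 24.8 and ranked 50, and the strongest Foxc2 peak at Nedd9 (chr13:41352327-41352693, fold 5.33) lay within it. The strongest Fhl2 peak, of fold 25, ranked 49. These were the only genes of the 52 with a peak among the highest 1% of folds in its list, and of the 10, Tns2 had such a peak through the one in Eif4b. Crk, whose product binds p130Cas and paxillin, had 2 Foxc1 and 3 Foxc2 peaks, of which the strongest lay in its neighbours Inpp5k and Myo1c. Lpp had 4 and 1 and Palld, a partner of actinin, 4 and 1.

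**Figure D4:**
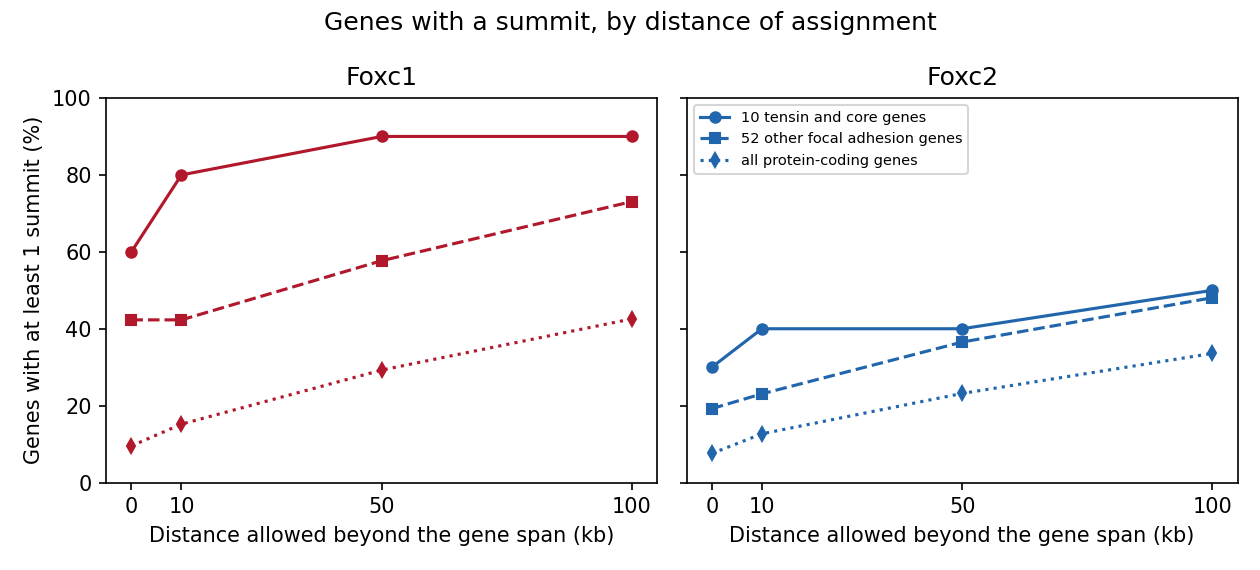
Percentage of genes with at least 1 Foxc1 summit (left) or Foxc2 summit (right) against the distance in kb allowed beyond the gene span, for the 10 genes (solid), the 52 other focal adhesion genes (dashed) and all protein-coding genes (dotted). At 50 kb the Foxc1 shares are 90, 57.7 and 29.3%, and the Foxc2 shares 40, 36.5 and 23.2%.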

How the data were processed

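Peak lists of 1 Foxc1 and 1 Foxc2 ChIP-seq library of mouse glomeruli were analysed. The submitters' processing notes name Bowtie2, MACS2 and the build mm10. For versions, settings, pooling and the control of each list, the sources used here give nothing. The deposited fold enrichment is the authors' ratio to local background, and the deposited −log10 of p and q are per peak. The deposited score is 10 times the −log10 q without its decimals and went unused. Folds were compared only within a list. The q-value of every peak was at most 0.047.

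Gene spans (21887 protein-coding genes, autosomes, X and Y) and promoter windows came from RefSeq tables of GRCm38.p6. All 10 genes matched the gene table and 6 the promoter table. Starts and strands were known for those 6 alone. Exons, introns and the genome sequence were not used here. Peaks on other sequences (6 Foxc1, 3 Foxc2) were left out. Overlap needed 1 shared base. Coordinates are 1-based. Intervals are exact Clopper-Pearson at 95%. Counting was tested on simulated data. The 10 genes and the list of 52 were chosen with earlier results of these data known. Named are all 10 genes, the 8 of the 52 with the most peaks or a peak in the top 1% of folds, and neighbours holding or nearest to a peak. Python 3.11.15, pandas 2.3.3 and scipy 1.17.1 were used.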

Additional observations from a re-analysis of the deposited data

How the results depend on the processing

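Of 72 values recomputed under other settings, 42 stayed within 1.5 times the reported one. Inside gene spans alone, the genes held 11 Foxc1 summits (reported 18), summits at gene ends fell from 2 to 0 for each antibody, and 10 of the other focal adhesion genes had a Foxc2 summit (reported 19). With 10 kb, 1 summit of each antibody lay at a gene end and 12 of the other genes had a Foxc2 summit. With peaks of fold 5 or more, 9 Foxc1 and 0 Foxc2 summits were left, Foxc2 was found at 0 of the 10 genes, 0 peaks overlapped, and 1 Foxc1 and 0 Foxc2 summits were at gene ends. The other genes then stood at 18 for Foxc1 (reported 30) and 6 for Foxc2. With q under 1e-05, Foxc2 kept 3 summits at 2 of the 10 genes (reported 11 at 4), with 1 at a gene end, 0 peaks of either antibody overlapped, and 11 of the other genes had Foxc2. With peaks of the gene's own or nearest place alone, 0 Foxc1 and 1 Foxc2 summits were at gene ends, and 11 of the other genes had Foxc2. With annotated starts added to gene ends, a setting chosen after seeing the data, 5 Foxc2 summits lay at one (reported 2). The overlap inside Tns2 was lost (0 for each antibody) when summits had to be within 100 bp or when the overlap had to cover 50% of both peaks. Foxc1 was found at 6 to 9 of the 10 genes under all settings tried. From spans alone to 100 kb, the share of all genes moved from 9.53 to 42.6% for Foxc1 and from 7.58 to 33.6% for Foxc2. It was not taken for the fold, q and own or nearest place settings, so those counts have no background. A fold of 5 lies above the upper quartile of the Foxc2 list, 4.65. The background shares moved from 29.3 to 34.9% (Foxc1) and from 23.2 to 26.7% (Foxc2) among genes with spans in the range of the 10. That range did not match the genes to the 10 for length. The motif window of 100 bases around summits was not run. No paired analysis was possible because each antibody had 1 library. Depth is unknown and bounds how far an absent peak can be read.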

Other observations

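Strong peaks lay beyond the 50 kb limit of some of these genes. A Foxc1 peak of fold 21.4 had its summit 112 kb from Ptk2, inside Dennd3, and another of fold 15.03 lay 99.8 kb from Tln1, in Fam166b. A weaker Foxc1 peak, of fold 5.68 and below the list's upper quartile of 6.64, lay 99.2 kb from Tns3, outside any gene. The Foxc2 peak of fold 6.36 in Arpc2, 125 kb from Tns1, was higher within its list than any Foxc2 peak counted at the 10 genes.

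The TGTTTA beside the Foxc1 summit at Rplp0 had counterparts elsewhere in the Foxc1 list. Of the 221 promoter windows with a Foxc1 summit, 68 (30.8%) had a TAAACA match within 15 bases of the summit, and of the 808 with a Foxc2 summit 7 did (0.866%). The 2 Foxc2 windows of Tns2 and Vcl, like most Foxc2 windows, had none. Matches within 15 bases of other positions were not counted, so the near-summit shares have no background. GC content differed between the Foxc1 and Foxc2 sets of windows. The shares with TAAACA anywhere in the window were therefore also taken by GC content, a split chosen after seeing the data. The near-summit shares were not split in this way. In windows of 65% GC or more, TAAACA was present in 30 of 64 with a Foxc1 summit (46.9%, exact 95% interval 34.3 to 59.8%). It was present in 22 of 609 with a Foxc2 summit (3.61%, 2.28 to 5.42%) and in 2.73% of all windows. Below 65% GC the shares were 43.9% (36.0 to 52.1%), 15.1% (10.4 to 20.8%) and 15.8%. Within each GC class the Foxc1 share was above the share of all windows, and the Foxc2 share was close to it. The intervals take windows as independent, and with 1 library per antibody they are no test. Windows of neighbouring starts can share bases, and a match of letters is not a binding site.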
